A study of Mus musculus with 3 samples.

Results

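Pgr encodes the progesterone receptor (PR), and the ERα binding sites described here are the ChIP-seq peaks whose midpoint lay within 100 kb of any annotated Pgr transcription start site (TSS) in mm9. In all, 14 of 16426 peaks were found this way, 7 of the 9607 peaks of replicate 1 and 7 of the 6819 peaks of replicate 2, and they formed 7 sites among the 6250 regions covered by peaks of both replicates. ERα ChIP-seq recovers the DNA held by estrogen receptor α with an antibody, here sc-542, and a peak is a place where ChIP reads exceeded those of input chromatin. The tissue was the #4 mammary gland of wild type (WT) female mice, given as BALB/c in the labels and as BALB/cJ in the study's methods. Their ovaries were removed when they were 6 weeks old, and after 10 days of rest they received 100 ng of 17β-estradiol and were collected 2 h later. Each of the 2 ChIP replicates came from its own pool of 6 mice, and 1 input library came from glands treated the same way. Only estradiol-treated ChIP libraries were analysed here, so each value is a level after estradiol and not a change with it. Whole glands were used, and a peak list does not tell which cells of the gland carried the receptor.

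PR is a ligand-activated transcription factor of the steroid receptor family. In the mammary gland it is found in a subset of luminal epithelial cells, most of which also carry ERα, and it drives side-branching and alveolar development largely through paracrine factors such as RANKL. Pgr is a textbook estrogen-induced gene, and its protein is used as a marker of ERα activity in breast cancer. ERα binds DNA as a dimer, and its estrogen response element (ERE) is an inverted repeat of the half-site GGTCA separated by 3 bases of any kind.

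Pgr (ENSMUSG00000031870) lies on the plus strand at chr9:8900419-8965425 (NCBIM37, the assembly of mm9), a length of 65.0 kb. Its 5 annotated transcripts start at 4 TSSs within 1030 bp, so the stretch examined was chr9:8800419-9001449. The sites are named here by the distance of their midpoint from the most 5′ TSS. None lay in the promoter. The site at -62.5 kb was the only one upstream, 2 sites lay in introns of Pgr at +37.4 kb and +51.0 kb, and 4 sites lay beyond the 3′ end of the gene at +67.9, +70.1, +71.4 and +72.6 kb.

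Of the 7 sites, 4 held an ERE with 1 mismatch, which are the best matches among the sites, since no site held an ERE without mismatch. They are printed from the mm9 genome on the plus strand, which is the strand of Pgr, with 8 bases to each side and with the 13 bases of the ERE in capitals.
+37.4 kb site, chr9:8937849-8937861: ttttcacaGGTCACAGTGAACttttacat
+51.0 kb site, chr9:8951320-8951332: acctctcaAGTCAGCATGACCttactgct
+70.1 kb site, chr9:8970509-8970521: ttgcctcaTGTCACGCTGACCttattgtt
+72.6 kb site, chr9:8972935-8972947: agagctggGGTGATCGTGACCtccttagt
Counted from 1 at the left end of the consensus, the mismatches were C12A at +37.4 kb, G1A at +51.0 kb, G1T at +70.1 kb and C4G at +72.6 kb. Each of these elements therefore kept 1 complete half-site, the left one at +37.4 kb and the right one at the other sites.

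The best matches of the remaining sites had more mismatches and are shown for comparison.
-62.5 kb site, chr9:8837804-8837816: actcaagaGAACACTGTGACCcagggcat
+67.9 kb site, chr9:8968288-8968300: gcctgtgtAGTCATCATAACCtttatctc
+71.4 kb site, chr9:8971685-8971697: gcttactaGGTCAGTTGGAAAgttcattg
Here the mismatches were G2A and T3A at -62.5 kb, G1A and G10A at +67.9 kb, and T9G, C12A and C13A at +71.4 kb. The -62.5 kb and +71.4 kb matches kept a complete half-site, whereas at +67.9 kb both half-sites carried a mismatch.

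The strongest site was the one at +70.1 kb (chr9:8970137-8970966), intergenic and 4712 bp past the annotated end of Pgr. Its score, which is 10 times the negative log10 of the peak caller's p-value, was 2349.7 in replicate 1 and 2059.11 in replicate 2. These scores ranked 65th of 9607 and 44th of 6819, and by the lower of its scores the region ranked 42nd of the 6250 shared regions. Both scores stood far above those of every other Pgr site, 2.42 times the next highest in replicate 1 and 3.31 times in replicate 2. The 200 bases in its centre are shown because they hold both this ERE and the stretch that the study amplified for ChIP-qPCR.
+70.1 kb site, chr9:8970452-8970651: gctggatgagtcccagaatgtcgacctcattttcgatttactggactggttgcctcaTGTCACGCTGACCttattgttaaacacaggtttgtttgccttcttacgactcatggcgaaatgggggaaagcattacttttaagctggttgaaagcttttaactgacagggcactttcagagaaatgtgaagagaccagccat
The capitals again mark the ERE, the only match with at most 1 mismatch in these 200 bases. The study's Pgr primer pair matched this locus at chr9:8970491-8970555, a product of 65 bp that contains the whole ERE.

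The site at +72.6 kb (chr9:8972674-8973280) scored 971.98 in replicate 1 and 536.18 in replicate 2, ranks of 561 and 896. It lay in an exon of Gm16485, a gene model on the plus strand that follows Pgr and to which no function is assigned here. The upstream site at -62.5 kb (chr9:8837537-8838378) scored 759.22 and 528.34, ranks of 832 and 912, and was the only Pgr site with no other gene's TSS closer than that of Pgr. In Pgr intron 3, the site at +37.4 kb (chr9:8937449-8938174) scored 512.96 and 622.72, ranks of 1421 and 725. By the lower of their scores these sites ranked 881st, 899th and 930th among all shared regions, close to each other and well below the +70.1 kb site.

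The other 3 sites were ordinary peaks by score. At +67.9 kb (chr9:8967987-8968564, intergenic) the scores were 200.54 and 222.03. In Pgr intron 4, at +51.0 kb (chr9:8951159-8951603), they were 151.82 and 155.93. The site at +71.4 kb (chr9:8971492-8972071) scored 162.17 and 147.94, and its midpoint lay 9 bp before the TSS of Gm16485. The list medians were 162 in replicate 1 and 161 in replicate 2, so both of the latter sites lay close to the middle of the lists, with 46.6% and 48.4% of peaks at or below the +51.0 kb site and 49.9% and 45.5% at or below the +71.4 kb site. In each list 5 of the 7 Pgr peaks were above the median, and 1 was in the top 1%. The top 10% held 3 of them in replicate 1 and 1 in replicate 2.

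**Figure D1:**
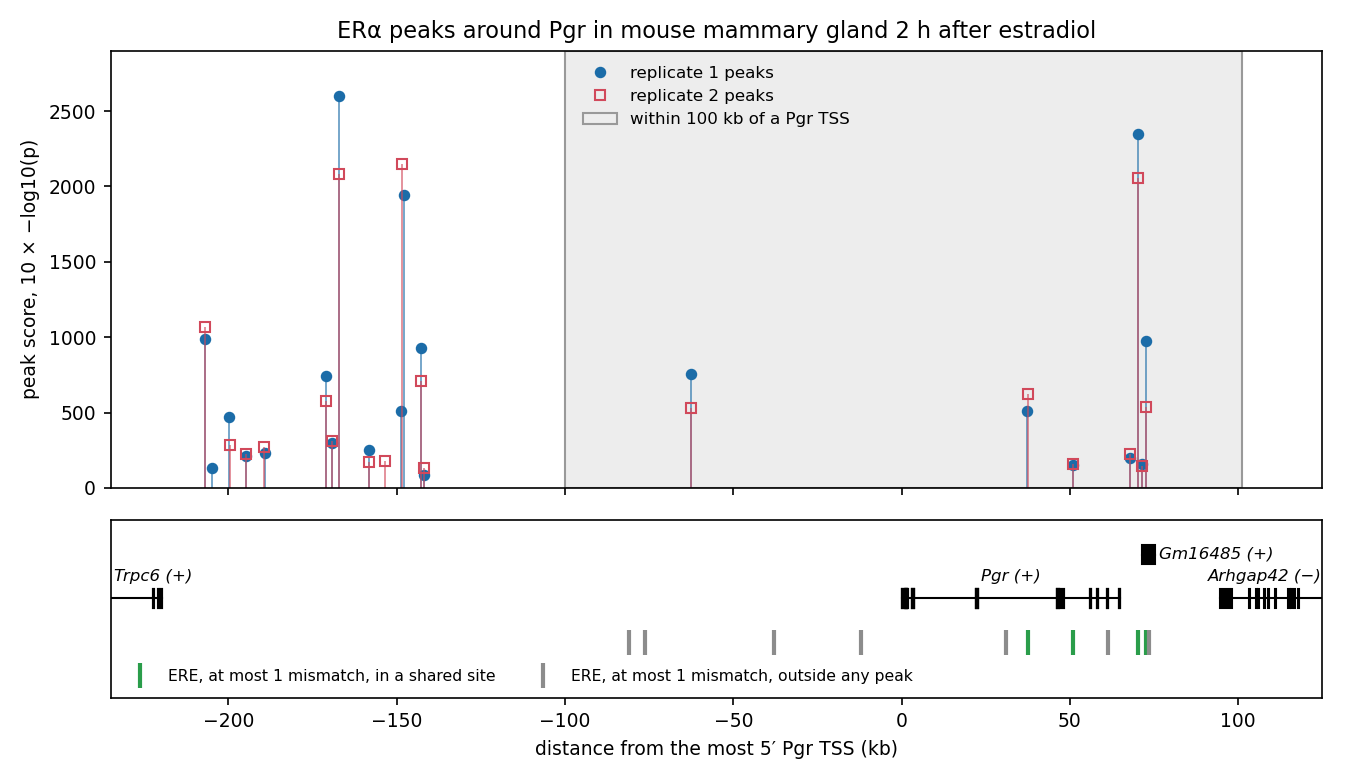
ERα peaks around Pgr by distance of the peak midpoint from the most 5′ Pgr TSS (kb), with the peak score of replicate 1 (filled circles) and replicate 2 (open squares) above and gene models (boxes are exons) below. Vertical ticks mark EREs with at most 1 mismatch, searched within 100 kb of a Pgr TSS (grey area). The +70.1 kb site stands above the other 6 Pgr sites in both replicates, 4 sites follow the 3′ end of Pgr within 5294 bp, and no peak lies at the promoter.

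All 7 Pgr peaks of each replicate overlapped a peak of the other. Over the whole lists, 64.9% of replicate 1 peaks and 90.6% of replicate 2 peaks did so. The midpoints of the paired Pgr peaks lay between 5 bp and 74 bp apart. Replicate 1 had the higher score at 4 Pgr sites and replicate 2 at 3, whereas replicate 1 was higher in 81.2% of the 6097 pairs of peaks that overlapped only each other. The ratio of the replicate 1 to the replicate 2 score was 0.824 at +37.4 kb, 0.903 at +67.9 kb, 0.974 at +51.0 kb, 1.1 at +71.4 kb, 1.14 at +70.1 kb, 1.44 at -62.5 kb and 1.81 at +72.6 kb, against a median of 1.31 over all pairs (quartiles 1.07 and 1.63). With 2 replicates, the order of the +72.6, -62.5 and +37.4 kb sites was not settled: +72.6 kb was highest of the 3 in replicate 1 and +37.4 kb in replicate 2. The +70.1 kb site came first in both replicates, these 3 next and the remaining 3 last.

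**Figure D2:**
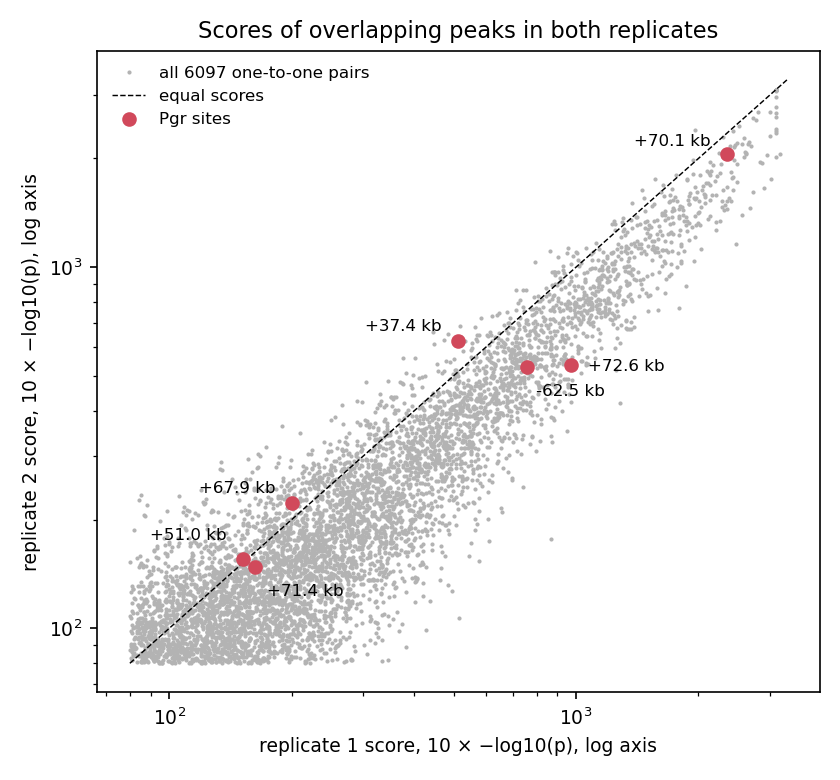
Replicate 2 score against replicate 1 score on log axes for the 6097 pairs of peaks that overlapped only each other (grey) and for the 7 Pgr sites (red, labelled by distance from the most 5′ TSS). The Pgr sites lie on both sides of the line of equal scores, 3 above and 4 below it, and range from the middle of the lists to near their top.

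No peak of either list lay within 1 kb of a Pgr TSS. The closest peak to the most 5′ TSS was 37372 bp away in replicate 1 and 37430 bp in replicate 2, both belonging to the +37.4 kb site. RefSeq places the start of Pgr 586 bp farther 5′, and its promoter sequence around that start (RefSeq, GRCm38.p6) matched mm9 exactly at chr9:8899583-8899882. This promoter overlapped 0 peaks, its best ERE match had 4 mismatches, and it held no half-site GGTCA, which 40.5% of 32851 RefSeq promoters of that length hold. It contained 1 match to the SP1 box GGGCGG, present in 35.7% of promoters, and 1 match to the forkhead letters defined below, present in 6.54%.

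The 4 sites beyond the 3′ end began 2562 bp past the gene and spanned 5294 bp, with gaps of 1572, 525 and 602 bp between neighbours. The other gaps at the locus were 99070 bp between -62.5 and +37.4 kb, 12984 bp between the intronic sites and 16383 bp from the second of these to the first site past the gene. Stretches as long as the distance of 4701 bp between the outer midpoints of the 4 sites were counted, each starting at a shared region. Of 6243 such stretches, 11 (0.176%), that of the Pgr sites included, held at least 4 shared regions. This describes how seldom regions lie so close and is no test. Gm16485, whose TSS lies within the +71.4 kb site, held the closest TSS to 6 of the 7 sites, including both sites inside Pgr introns. Assignment to the nearest TSS of the annotation used here, which includes Gm16485, would thus leave Pgr with 1 of its 7 sites. The study assigned sites to the nearest TSS of RefSeq genes, and it gave the downstream peak that it checked by ChIP-qPCR to Pgr.

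The outermost Pgr site lay 71528 bp from its nearest Pgr TSS. The nearest shared region left out by the limit of 100 kb had its midpoint 141965 bp from the closest Pgr TSS, with scores of 85.35 and 134.15. No peak therefore lay near the limit itself.

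To place the sequences in context, 400 bp around the midpoint of each shared region were searched on both strands. An ERE with at most 1 mismatch was found at 4 of 7 Pgr sites (57.1%, exact Clopper-Pearson 95% interval 18.4% to 90.1%, for counting error only). The share was 31.1% over all 6243 shared regions on assembled chromosomes and 1.1% over 12040 windows of the same width placed 5 kb to each side and free of peaks. The interval for the Pgr sites includes the share over all regions. It treats the 7 sites as independent draws, although 4 of them lie within 5294 bp, so it is no test. With at most 2 mismatches, 6 of the 7 Pgr sites had a match, against 67.4% of all shared regions and 15.5% of the flanking windows. The 4 EREs with 1 mismatch lay within 55 bp of the midpoint of their site, as did 74.0% of such EREs over the 1942 shared regions that held one. The best match at -62.5 kb lay farther out, at -148 bp from the midpoint.

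Regions with a better ERE had higher scores across all shared regions. The median of the lower of each region's scores was 340 for the 412 regions with a perfect ERE, 224 for 1530 regions with 1 mismatch, 168 for 2264 with 2 mismatches and 136 for 1730 with 3. Within its own class, the +70.1 kb site stood at or above 99.0% of regions, the +72.6 kb site 77.5%, the +37.4 kb site 76.3% and the +51.0 kb site 32.6%. Among regions with 2 mismatches, the -62.5 kb site stood at or above 88.2% and the +67.9 kb site 58.7%. The +71.4 kb site stood at or above 55.1% of regions with 3 mismatches. The number of mismatches thus did not order the Pgr sites by score. The +51.0 kb site, with 1 mismatch, scored below the -62.5 kb site, with 2, in both replicates.

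EREs with at most 1 mismatch were also present at the locus without a peak. The 201 kb examined held 11 of them, all with 1 mismatch, of which 4 lay in the sites above and 7 in no peak of either list. Over the genome, 2.98% of 72377 such elements lay in a shared region, 17.9% of the 2353 perfect ones and 2.47% of the 70024 with 1 mismatch. The locus held 5.47 such elements per 100 kb against 2.74 over the genome, both counted with repeats included. The elements outside peaks are shown because several have the same half-sites as elements inside peaks.
-81.1 kb, chr9:8819338-8819350: caggttaaTGTCATGATGACCcagtctgt
-76.3 kb, chr9:8824104-8824116: tatctttaTGTCACACTGACCcattcata
-37.8 kb, chr9:8862632-8862644: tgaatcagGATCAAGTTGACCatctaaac
-12.0 kb, chr9:8888400-8888412: aaaaaaaaAGTCACCCTGACCattaccgg
+30.9 kb, chr9:8931282-8931294: cagtgtcaGGTCACCTTGGCCactaactc
+61.2 kb, chr9:8961634-8961646: ctgtgaggGGGCACCATGACCacggcaac
+73.4 kb, chr9:8973837-8973849: tgctacagGGTCATTTTGTCCtttcaagg
The first 4 are intergenic, the next 2 lie in Pgr introns and the last lies in the Gm16485 exon, 866 bp from the midpoint of the +72.6 kb site. The elements at -81.1 and -76.3 kb carry the same substitution, G1T, as the ERE of the strongest site and differ from it only within the spacer. The element at -12.0 kb shares its G1A with the ERE at +51.0 kb. The same 10 half-site letters thus occurred at this locus both inside and outside peaks.

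The half-site letters of the strongest site were the most often occupied of the 4. Counting both strands, they occurred 8147 times in the genome, and 382 of these (4.69%) lay in a shared region. For the letters at +51.0 kb the count was 190 of 6322 (3.01%), for those at +72.6 kb 83 of 4233 (1.96%) and for those at +37.4 kb 80 of 4300 (1.86%). All 13 letters of the +70.1 kb ERE, spacer included, occurred 24 times, of which 3 lay in shared regions, and those of the +72.6 kb ERE 6 times, of which that site was the only one.

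The position of the mismatch in the half-site gave the same order over the genome, except that the EREs at +70.1 and +51.0 kb share a position and were not ordered by it. These counts include the copies counted above, so they are no separate evidence. When the 5 bases of each half-site are counted from the outer edge, 3.81% of EREs with their 1 mismatch at position 1 lay in a shared region, 0.777% at position 2, 3.97% at position 3, 1.87% at position 4 and 3.1% at position 5. The EREs at +51.0 and +70.1 kb have theirs at the outermost base, the one at +37.4 kb at position 2 and the one at +72.6 kb at position 4. Position 2 had both the lowest share and the largest number of genomic copies (23933), although the particular letters at +37.4 kb, at 1.86%, lay above the mean for that position.

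**Figure D3:**
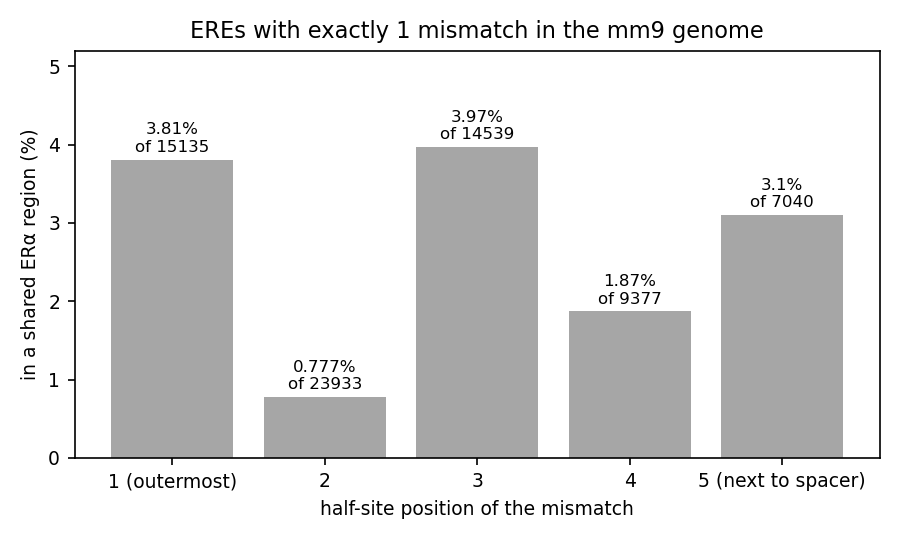
Share (%) of EREs with exactly 1 mismatch that lay in a shared ERα region, by position of the mismatch in its half-site, with the number of such EREs in mm9 above each bar. Position 2, that of the +37.4 kb ERE, has the lowest share at 0.777%, and position 1, that of the +51.0 and +70.1 kb EREs, has 3.81%.

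Other motifs were searched as fixed letters in the same windows, and each count is a description of letters and not of a bound factor. The half-site GGTCA, searched by itself, was present at all 7 Pgr sites, against 88.9% of all shared regions and 50.6% of flanking windows. At every Pgr site but +67.9 kb a copy lay within the best ERE match, so this count largely repeats the ERE search. AP1, the Fos and Jun element (TGACTCA or TGAGTCA, which are the same site read on opposite strands), was found at +37.4 kb only, 184 bp from the midpoint, against 16.7% of all shared regions. The extended half-site CAAGGTCA of SF1 and the estrogen-related receptors was found at +67.9 kb only, against 9.35%, and its letters include a half-ERE. The forkhead letters TATTTAC or TGTTTAC, those of FOXA1, were found at +67.9 and +71.4 kb, 2 of 7 sites against 14% of all shared regions and 10.7% of flanking windows. Neither of these sites held an ERE of at most 1 mismatch, but the -62.5 kb site, which also lacked one, held no forkhead letters in its window. FOXA1 is a pioneer factor known to open chromatin for ERα in breast cancer cells, and its binding at the Pgr sites was not tested.

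The letters GTCACG, used for PAX2, were found at +70.1 and +72.6 kb, 2 of 7 sites against 9.16% of all shared regions and 3.94% of flanking windows. At both sites they lay inside the ERE, made up of 4 half-site letters and 2 spacer bases. Over all shared regions, 88 of the 572 windows with these letters (15.4%) had them inside an ERE with at most 1 mismatch. In flanking windows with these letters it was 3 of 474 (0.633%). This difference largely repeats the ERE search, since EREs of that kind were found in 31.1% of shared regions and 1.1% of flanking windows. The GATA letters AGATAA or TGATAA were present at 4 sites, -62.5, +37.4, +67.9 and +72.6 kb, against 32.7% of shared regions and 34.1% of flanking windows. The RUNX letters TGTGGT were present at -62.5 and +71.4 kb, against 28.5% and 28.6%. For these 2 motifs, all shared regions and flanking windows differed little.

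No Pgr site held the SP1 box (9.47% of all shared regions), the AP2 letters GCCNNNGGC (15.3%), the core of the progesterone and glucocorticoid receptor element (2.63%) or the CTCF core (1.81%). With 7 sites, 0 matches allow a share of up to 41.0% (exact Clopper-Pearson 95% interval), an interval that includes each of these shares. This interval, too, treats neighbouring sites as independent draws and is no test. The GC content of the 400 bp was below the median of all shared regions (48.0%, quartiles 44.0% and 52.2%) at all 7 Pgr sites, with a median of 39.0%. It was highest at the strongest site, at 46.8%, and lowest at +67.9 kb, at 34.2%.

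**Figure D4:**
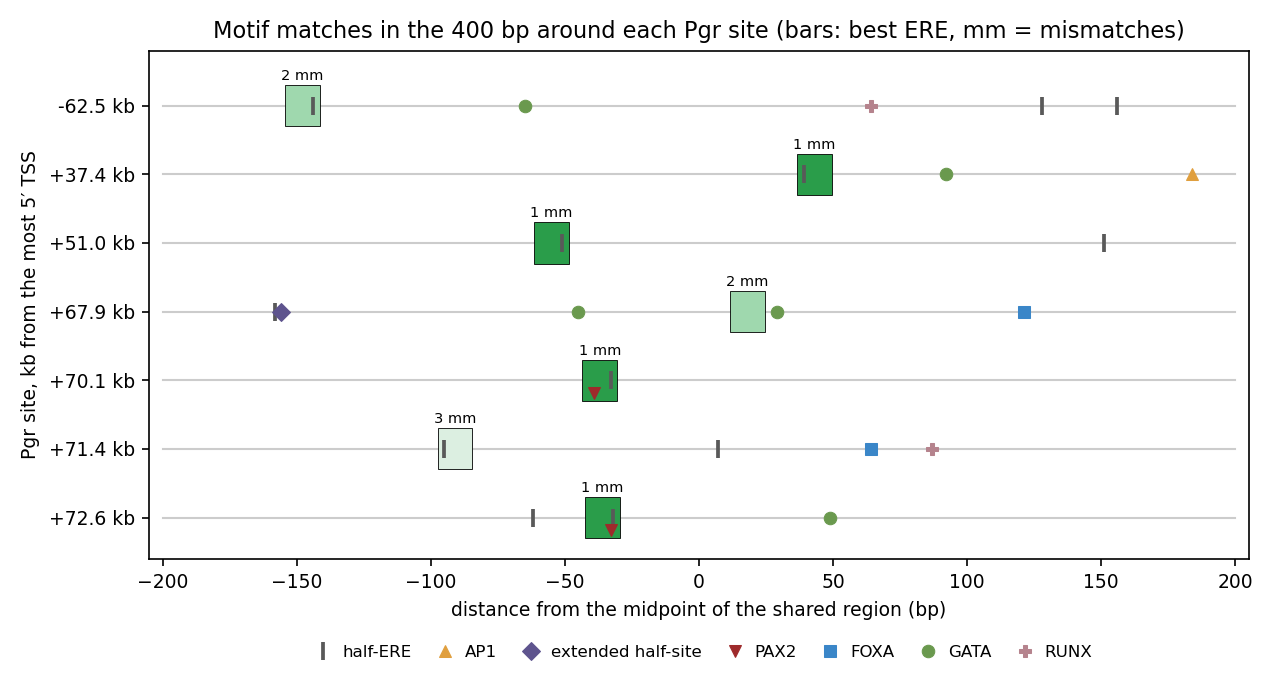
Motif matches within 200 bp to each side of the midpoint of the 7 Pgr sites, by distance from the midpoint (bp). Green boxes are the best ERE match with its number of mismatches (mm), and symbols are the other motifs. The EREs with 1 mismatch lie within 55 bp of the midpoint, and both PAX2 matches lie inside an ERE.

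Among all 22350 protein-coding genes, 38.1% had at least 1 shared region within 100 kb of a TSS and 0.734% (164 genes, exact 95% interval 0.626% to 0.855%) had at least as many as Pgr. Neighbouring genes share regions, so these genes are not independent. Of the 164 genes, 27 (16.5%) had a shared region within 1 kb of a TSS, and Pgr was not among them. The share depended on the distance: 8.48% of genes had at least as many as the 2 Pgr sites within 50 kb. Besides Pgr, 72 genes beyond 1 Mb of it had exactly 7 shared regions. Summed over the 7 regions, log10 of the lower score was 18.1 for Pgr, above that of 70 of these 72 genes, whose median was 16.4. An ERE with at most 1 mismatch was present at 4 or more regions for 12 of the 72, with a median of 2.

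**Figure D5:**
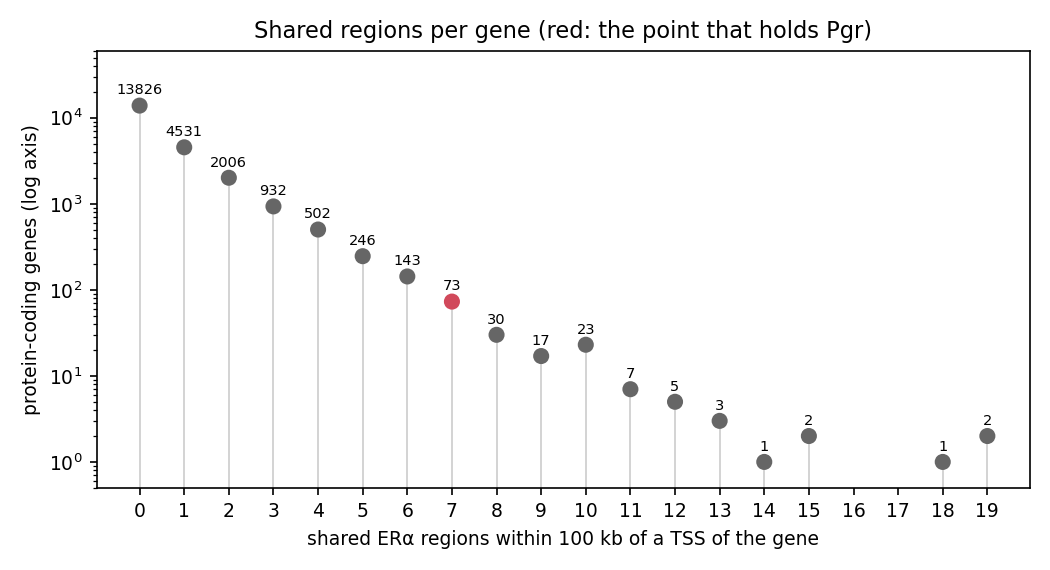
Number of protein-coding genes (log axis) by the number of shared ERα regions within 100 kb of any TSS of the gene. Pgr is 1 of the 73 genes with 7 regions (red), and 13826 genes have none.

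The genes closest to Pgr by this sum, among those with 7 regions, were Alpl (18.01), Znhit6 (17.938), Kcnab1 and Ssr3 (17.882 each) and Pdcd4 (17.579). Alpl encodes tissue-nonspecific alkaline phosphatase, Kcnab1 a potassium channel β subunit, Ssr3 a subunit of the translocon-associated protein complex and Pdcd4 an inhibitor of translation. Kcnab1 and Ssr3 are neighbours and were counted with the same 7 regions. The closest region lay 1191 bp from a TSS for Alpl and 15815 bp for Znhit6, against 36363 bp for Pgr. An ERE with at most 1 mismatch was found at 2 of the 7 regions of Pdcd4 and at 1 of 7 for each of the other genes named, against 4 of 7 for Pgr.

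Among 4 other steroid receptor genes, 2 had a shared region within 100 kb of a TSS. Esr1, which encodes ERα itself, had 6, but its TSSs are spread over 324933 bp, against 1030 bp for Pgr, so a wider stretch was counted. Nr3c1, the glucocorticoid receptor gene, had 3. The genes of ERβ (Esr2) and of the mineralocorticoid receptor (Nr3c2) had none, though Esr2 had 1 peak in the replicate 1 list. The highest lower score was 1230.21 for Esr1 and 856.5 for Nr3c1, against 2059.11 for Pgr, which had the highest-scoring shared region of these 5 genes. Pgr also had the most shared regions, 7 against 6 for Esr1, but in the single lists Esr1 had more peaks, 9 in replicate 1 and 8 in replicate 2 against 7 and 7.

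Of 19 genes listed for the progesterone pathway, 7 had a shared region, a share to be read beside the 38.1% over all protein-coding genes. Among chaperones of the receptor, Fkbp4 had 1 region, 123 bp from a TSS and with a lower score of 389.25, and Fkbp5 had 2. Pgrmc2 also had 2. Among coregulators, the coactivator gene Ncoa3 had 6, with TSSs spread over 74794 bp and a highest lower score of 302.55, while Ncoa1, Ncoa2 and the corepressor gene Ncor1 had none. Among the paracrine mediators and targets of PR, Areg (amphiregulin), Elf5 and Cited1 had 1 region each, that of Areg 97409 bp from its TSS. Tnfsf11 (RANKL), its receptor gene Tnfrsf11a, Wnt4, Ccnd1, Calca, Id4, Ihh and Hand2 had no shared region within 100 kb, and neither did Pgrmc1. A peak in 1 list only was found for Tnfrsf11a, Ccnd1, Ncoa1 and Ncoa2 (replicate 1) and for Id4 (replicate 2).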

How the data were processed

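The authors used BWA to align the reads (mm9) and MACS to call peaks for each ERα ChIP replicate, with a cutoff of 1e-08 on the p-value. Per the file headers, each list was made against the input. The MACS version is not given in the sources used here. The deposited score of a peak is the negative log10 of its p-value, times 10. The lists hold no reads, so depth is unknown from them, and scores rise with depth as well as enrichment and rank peaks within 1 list only. Groups and replicates were taken from the labels. The input has no list of its own here.

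Peaks overlapping by at least 1 bp were paired, and the stretch covered by both was the shared region. All peaks ended within the NCBIM37 chromosome lengths. TSSs are those of GENCODE vM1, coordinates are 1-based, and motifs were matched as fixed letters in 400 bp windows. No result rests on a test, because the 2 replicates belong to 1 condition. The overlap, distance and motif searches were tested on simulated data. The genes named are Pgr, the host and nearest genes of its sites, the listed pathway genes and 5 genes with the same number of shared regions and the closest summed log10 score. The sites, gene lists and motifs were chosen with earlier results of these data known, and some listed genes are not reported here. Tools were pandas 2.3.3, numpy 2.4.6, scipy 1.17.1 and matplotlib 3.10.9 under Python 3.11.15.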

Additional observations from a re-analysis of the deposited data

How the results depend on the processing

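The number of Pgr sites was set by the distance allowed. Each list had 7 Pgr peaks within 100 kb, 2 within 50 kb and 18 within 200 kb. A p-value cutoff of 1e-20 left 5 shared sites, without the ones at +51.0 and +71.4 kb, and 1e-10, reciprocal overlap of 50% and midpoints within 100 bp each left 7. Without either replicate, 7 sites and 4 with an ERE of at most 1 mismatch were counted (7 to 7 and 4 to 4). Requiring no mismatch left 0 sites with an ERE. The share of protein-coding genes with at least as many regions as Pgr, 0.734%, was 0.582% with the most 5′ TSS only, 0.291% at 1e-20, 8.48% at 50 kb, 0.0313% at 200 kb (a setting added after the data were seen) and 0.81% to 1.96% with 1 replicate left out, the higher value being that of replicate 1 alone. In 200 bp windows the AP1 and extended half-site matches were gone, forkhead letters remained at 1 site and the half-site GGTCA at 5. Over the whole regions, which are longer than 400 bp, forkhead letters were found at 3 sites and GATA letters at 6. Shares over all shared regions were computed for 400 bp windows only, so the counts in other windows cannot be set beside them. No paired analysis was possible because both replicates belong to 1 group and no result comes from a test. The lists contain no reads, so sites below the cutoff of the peak caller could not be examined.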

Other observations

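A further group of ERα regions lay upstream, outside the limit of 100 kb. Between Trpc6, a cation channel gene that ends at chr9:8680565, and the most 5′ Pgr TSS, a distance of 220 kb, 12 shared regions lay from -207.0 to -142.0 kb. Their scores ran from 85.3 to 2600 in replicate 1 and from 134 to 2150 in replicate 2. The highest in replicate 1 was at -167.2 kb, with 2599.8 there and 2085.24 in replicate 2, ranked 40th in each list, and these values lie close to those of the +70.1 kb site in replicate 2 and above them in replicate 1. The highest in replicate 2 was at -148.0 kb, with 1945.98 in replicate 1 and 2148.38 in replicate 2, and this replicate 2 peak also covered the region at -148.8 kb. Pgr held the nearest TSS of 8 of the 12 regions and Trpc6 that of 4.

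An ERE with at most 1 mismatch lay in the 400 bp window of 3 of the 12 regions, against 31.1% of all shared regions. None was perfect, against 6.6% of all shared regions. At -167.2 kb the best match in that window had 4 mismatches, but the whole region held one with 1 mismatch at chr9:8733018-8733030. Of 6243 stretches of the same length starting at a shared region, 2 (0.032%), that of this group included, held at least 12. The median was 1. Both the length and the number were taken from this group, so the count is a description and no test. Counted within 200 kb, Pgr had 18 shared regions, as did Pemt. The only genes with more were Zmiz1 with 24, Cebpb with 22, Tmem189 with 22 under each of 2 identifiers and Ube2v1 with 20. Cebpb, Tmem189 and Ube2v1 lie on the same chromosome. The peak lists do not tell which gene, if any, a region acts on.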
